A study of Mus musculus with 4 samples.

Results

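Genes of 9 red cell surface proteins were examined in mouse blood, namely Gypc, Rhd, Rhag, Kel, Xk, Ermap, Aqp1, Cd24a and Icam4. They were chosen by gene symbol from the deposited expression table, and all 9 have values in all 4 libraries, among 17823 genes with values. The mice were C57BL/6 animals, called adult in the sample labels and 12 months old in the study's methods. The 2 control libraries (Ctrl 1 and Ctrl 3) came from mice given phosphate-buffered saline (PBS), and the 2 treated libraries (Nar 1 and Nar 3) from mice given naringenin (Nar), a flavonoid found in Ribes meyeri, which the study injected into the tail vein at 20 mg/kg. Treatment lasted 30 days in both groups. Nothing in the labels says whether each library came from a separate animal, so the p-values measure the spread between these libraries.

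The surface of the red cell carries the blood group antigens. The Rh protein sits in the membrane together with its glycoprotein partner RhAG, and both are held near band 3, the anion exchanger. The Kell protein, a metalloprotease, is joined to XK by a disulfide bond. Glycophorin C ties the membrane to protein 4.1 and p55 of the skeleton below it. Red cells that have just left the marrow, the reticulocytes, still hold RNA from which such proteins are made, and mature red cells lose it.

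For 7 of the 9 genes a RefSeq promoter window on GRCm38.p6 was at hand, matched by NCBI Gene number. Of these, 5 held a GATA motif in the 250 bases before the annotated start site, and all 7 held a CACCC motif. GATA factors and the factor KLF1, which reads CACCC boxes, are known regulators of red cell genes. The last 100 bases before the start site are shown for 5 of the genes, because they set Kel, Rhd and Ermap, which have GATA motifs, beside Xk and Aqp1, which have none. The GATA motif was searched as AGATAA and, since the first base of the site varies, also as TGATAA. The CACCC motif was searched by the letters of its name, and the TATA motif, which positions the start of transcription, as TATAAA. Both strands were read, and capitals mark every match on either of them, so that some are shown as the complement read backwards, such as GGGTG for the CACCC motif.
Kel: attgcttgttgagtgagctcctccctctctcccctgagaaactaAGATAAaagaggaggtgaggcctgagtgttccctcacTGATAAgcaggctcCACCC
Rhd: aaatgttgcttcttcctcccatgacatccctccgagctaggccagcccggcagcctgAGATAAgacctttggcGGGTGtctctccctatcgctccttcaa
Ermap: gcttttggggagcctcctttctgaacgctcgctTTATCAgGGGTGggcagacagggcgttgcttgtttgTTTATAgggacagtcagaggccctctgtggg
Xk: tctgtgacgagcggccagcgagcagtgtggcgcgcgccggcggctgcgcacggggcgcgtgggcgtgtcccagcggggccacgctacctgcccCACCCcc
Aqp1: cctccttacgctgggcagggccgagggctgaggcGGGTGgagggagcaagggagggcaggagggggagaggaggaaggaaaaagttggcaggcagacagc

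The windows lie at chr6:41704326-41704425 on the minus strand for Kel, chr4:134864436-134864535 on the plus strand for Rhd, chr4:119189996-119190095 on the minus strand for Ermap, chrX:9272684-9272783 on the plus strand for Xk and chr6:55336199-55336298 on the plus strand for Aqp1. Kel had 2 GATA motifs, at bases -56 to -51 and -19 to -14 before the start site, and a CACCC motif that ends at base -1. In Rhd the GATA motif spanned bases -43 to -38, in Rhag -31 to -26, in Ermap -67 to -62 and in Icam4 -43 to -38. The 6 GATA matches thus all fell between bases -67 and -14. Bases are counted from the start site of each promoter window. For Kel, Rhag and Ermap that site lies inside the gene span given below, which begins farther upstream. The CACCC match of Kel that ends at base -1 and the GATA match of Rhag therefore lie within that span. A GATA motif was present in 16.6% of 32851 promoter windows of the same length in the table, a CACCC motif in 52.0%, and both in 7.11%, while 5 of the 7 genes held both. These matches describe letters and do not show that a factor binds. The start of Xk was the richest in G and C, which made up 77.2% of the 250 bases, against 39.2% in Rhag.

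**Figure D1:**
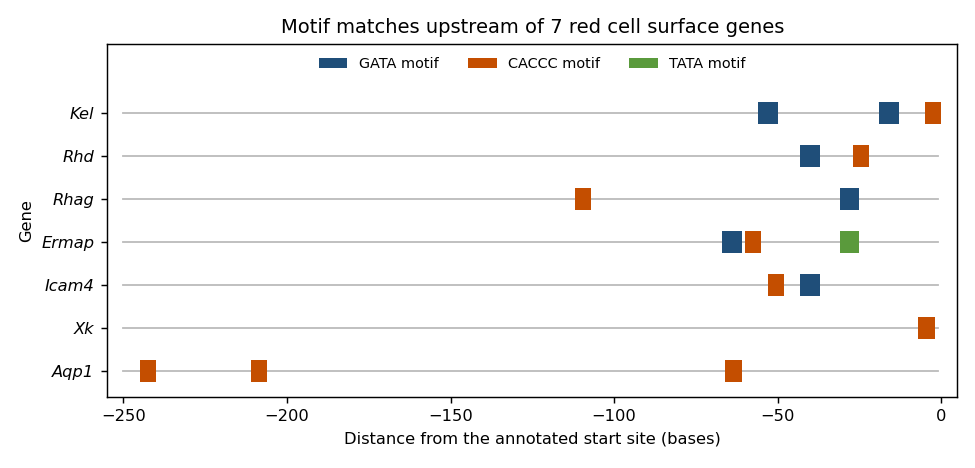
Matches to the GATA, CACCC and TATA motifs on either strand in the 250 bases before the annotated start site of 7 genes, drawn to scale with the distance from the start site in bases on the horizontal axis. The GATA matches of Kel, Rhd, Rhag, Ermap and Icam4 lie between bases -67 and -14, and Xk and Aqp1 have CACCC matches alone.

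The RNA levels of these genes spanned a wide range. Values are FPKM, fragments per kilobase of transcript scaled to the mapped fragments of the library, a level per length that can be compared between genes within the limits of the authors' gene models. Cd24a, which encodes a small lipid-anchored glycoprotein also known as heat-stable antigen, had a mean of 235.0 FPKM over the 4 libraries and ranked 53 among all genes with values. Aqp1, the water channel that carries the Colton blood group, came next at 7.55 FPKM, and the ranges of these genes did not overlap. Kel at 3.34, Gypc at 2.50 and Rhd at 1.93 FPKM followed, and neighbours among Aqp1, Kel, Gypc and Rhd had overlapping ranges. A gap separated Rhd from Rhag at 0.415, Xk at 0.303 and Ermap at 0.258 FPKM, whose ranges overlapped from each gene to the next. Icam4, which encodes the Landsteiner-Wiener glycoprotein, was lowest at 0.085 FPKM, with a range below that of Ermap. Cd24a, Aqp1 and Icam4 held the same place in all 4 libraries.

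**Figure D2:**
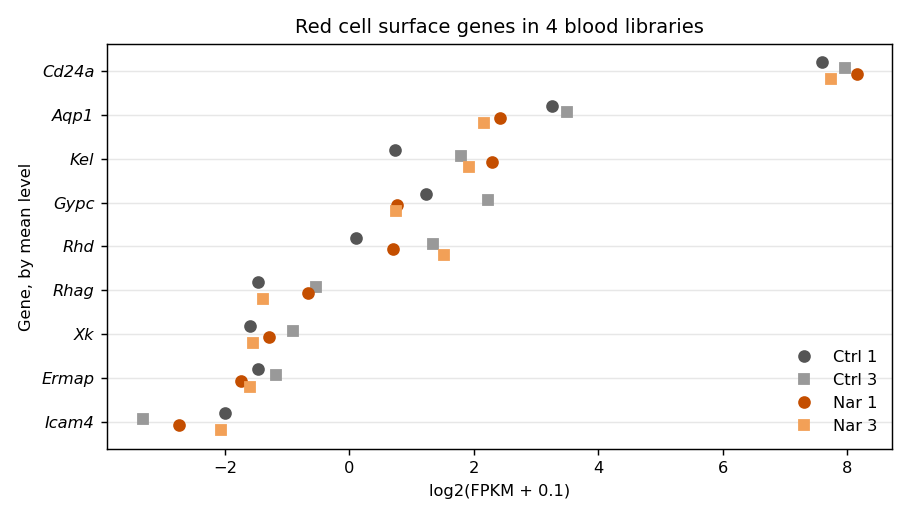
Level of each red cell surface gene in the 4 libraries, as log2(FPKM + 0.1) on the horizontal axis, with genes ordered by mean level, controls in grey and Nar in orange. Cd24a lies far above the rest in every library, and Icam4, listed at 0 in Ctrl 3, lies lowest.

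None of these genes passed the test of Nar against control blood. Differences were taken as log2(FPKM + 0.1), a scale that understates changes of weakly expressed genes, and tested with limma and Benjamini-Hochberg adjustment over the 5339 genes with a mean of at least 0.5 FPKM. Of the 9 genes, 5 reached that level, namely Cd24a, Aqp1, Kel, Gypc and Rhd. At a limma adjusted p-value under 0.05, 0 of these 5 were called, whereas 39.8% of all tested genes were called, 39.6% lower and 0.187% higher with Nar. Without adjustment 1 of the 5, Aqp1, had a p-value under 0.05, against 56.9% of all tested genes. The median log2 fold change was 0.17 for the 5 tested genes and -0.03 for all 9, beside -1.07 for all tested genes. Of the 5, 3 lay above 0, as did 6.33% of all tested genes. The median of the 5 depended on single libraries, being -0.24 without Ctrl 1 and 0.35 without Ctrl 3. In whole blood, fewer cells of a type and less RNA per cell cannot be told apart.

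**Figure D3:**
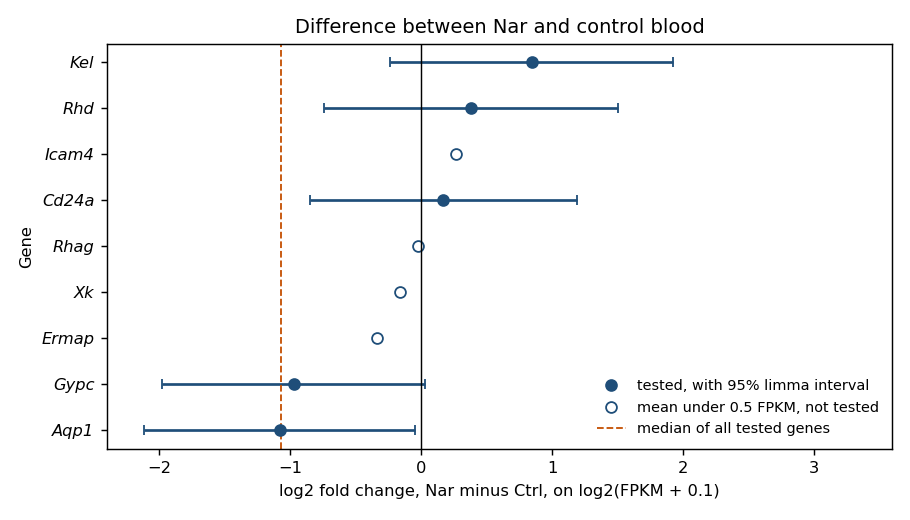
Log2 fold change of each gene, Nar minus control, on the horizontal axis, with 95% intervals from limma for the 5 tested genes and open circles for the 4 genes below 0.5 FPKM. The intervals of Cd24a, Rhd, Kel and Gypc include 0, and Gypc and Aqp1 lie near the dashed line at -1.07, the median of all tested genes.

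Whole libraries differed in ways that touch every value here. Haemoglobin genes made up 92.6% to 96.4% of the summed FPKM, so all other genes share a small remainder. All 12 neutrophil marker genes were called lower with Nar, with a median log2 fold change of -3.67, and their summed level was 1442 to 1746 FPKM in controls and 106 to 165 with Nar. Beside the 39.6% of all tested genes called lower and the 0.187% called higher, of 8 monocyte markers 5 were called lower and 0 higher, their sum being 77.9 to 100.3 FPKM in controls and 9.33 to 26.5 with Nar. The summed level of 8 platelet markers was 664 and 2066 FPKM in Ctrl 1 and Ctrl 3 and 584 and 430 in Nar 1 and Nar 3, with 0 of 8 called. For 8 B cell markers the sums were 31.3 to 41.2 in controls and 31.2 to 32.9 with Nar, and for 8 T cell markers 6.34 to 9.21 and 4.15 to 5.77, with 0 called in either list. Their part in the results below was not tested. The reference list of 20 red cell genes outside the surface set, such as Alas2 of heme synthesis, had 19 tested genes, 0 called and a median log2 fold change of 0.25. Of 10 tested haemoglobin genes 2 were called higher, Hba-a1 by 0.28 on the log2 scale, and 0 of 5 tested early red cell precursor genes were called, at a median of -0.86.

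Among the Rh proteins, Rhd, the gene of the Rh blood group polypeptide (NCBI Gene 19746, chr4:134864536-134896172, plus strand), had 0.98 FPKM in Ctrl 1 and 2.44 in Ctrl 3, beside 1.53 in Nar 1 and 2.75 in Nar 3. The highest and the lowest library belonged to different groups and the groups overlapped. Its log2 fold change was 0.38 (standard error 0.498, 95% interval -0.75 to 1.51, limma adjusted p = 0.512). It was -0.24 without Ctrl 1 and -0.02 without Nar 3, so that the direction rests on single libraries. Rhag, the partner that Rh needs to reach the membrane (NCBI Gene 19743, chr17:40811099-40844094, plus strand), stood at 0.26 FPKM in Ctrl 1 and 0.59 in Ctrl 3, beside 0.53 in Nar 1 and 0.28 in Nar 3. Its transcript shares stretches of up to 161 bases at 90% identity or more with 564 other genes, so reads could be split. Here too the groups overlapped, and the gene lay below the level required for the test, with a log2 fold change of -0.03 that turned to 0.90 under the median-of-ratios scaling described with Xk and ran from -0.50 without Ctrl 1 to 0.44 without Ctrl 3. Within a library, Rhd exceeded Rhag 3.77-fold in Ctrl 1, 4.14-fold in Ctrl 3, 2.89-fold in Nar 1 and 9.82-fold in Nar 3. The Rhd to Rhag ratio therefore did not separate the groups, and Nar 3 alone stood apart from the other libraries.

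Kel, which encodes the Kell metalloprotease (NCBI Gene 23925, chr6:41686329-41704334, minus strand), had a log2 fold change above 0. The controls held 1.56 (Ctrl 1) and 3.35 FPKM (Ctrl 3), the treated libraries 4.79 (Nar 1) and 3.67 FPKM (Nar 3). Both Nar libraries lay above both controls, but Nar 3 exceeded Ctrl 3 by little. This order was found in 1.27% of all tested genes. Among genes nearer to Kel it was found in 3 of 19 tested red cell reference genes and 2 of 10 membrane partner genes. The log2 fold change was 0.84 (standard error 0.478, 95% interval -0.24 to 1.92, limma adjusted p = 0.155), and it stayed above 0 when any library was left out, from 0.32 without Ctrl 1 to 1.37 without Ctrl 3. Xk, the gene of Kell's membrane partner and a member of a lipid scramblase family (NCBI Gene 22439, chrX:9272784-9313245, plus strand), had 0.23 FPKM in Ctrl 1 and 0.43 in Ctrl 3, beside 0.31 in Nar 1 and 0.24 in Nar 3. Its groups overlapped, and its log2 fold change of -0.16, which turned to 0.71 with median-of-ratios scaling, in which each library is divided so that the typical gene is level, was not tested at this level. It ran from -0.51 without Ctrl 1 to 0.18 without Ctrl 3. The Xk transcript resembles 5 pseudogenes over up to 267 bases.

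A ratio of genes within a library is free of scaling between libraries. The pairs described here were chosen after their values were seen. Kel exceeded Xk 6.78-fold in Ctrl 1, 7.79-fold in Ctrl 3, 15.5-fold in Nar 1 and 15.3-fold in Nar 3, so that replicates lay close together and the groups did not overlap. Rounding of the deposited values to 2 decimals leaves these ratios between 6.62 and 7.89 in controls and between 15.0 and 15.7 with Nar. That range leaves out the counting error, which is unknown, and Xk lay below the level required for the test. The geometric mean of the ratio was 2.11-fold higher with Nar, given as a description since the pair was chosen. Of 8 ratios computed, 5 separated the groups. Kel over Slc4a1, the gene of band 3, was 1.42-fold higher with Nar. Gypc over Slc4a1, Aqp1 over Slc4a1 and Aqp1 over Aqp9 were lower, at 0.383, 0.362 and 0.487 of the control ratio.

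Gypc, which encodes glycophorin C and carries the Gerbich blood group (NCBI Gene 71683, chromosome 18, minus strand), had 2.24 FPKM in Ctrl 1 and 4.59 in Ctrl 3, beside 1.60 in Nar 1 and 1.57 in Nar 3. The values with Nar were the lower ones, as they were for 78.3% of all tested genes, and the controls differed from each other 2.05-fold. The log2 fold change was -0.98 (standard error 0.443, 95% interval -1.98 to 0.03, limma adjusted p = 0.0941), close to the median of all tested genes. It was -0.47 without Ctrl 3 and -1.48 without Ctrl 1.

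**Figure D4:**
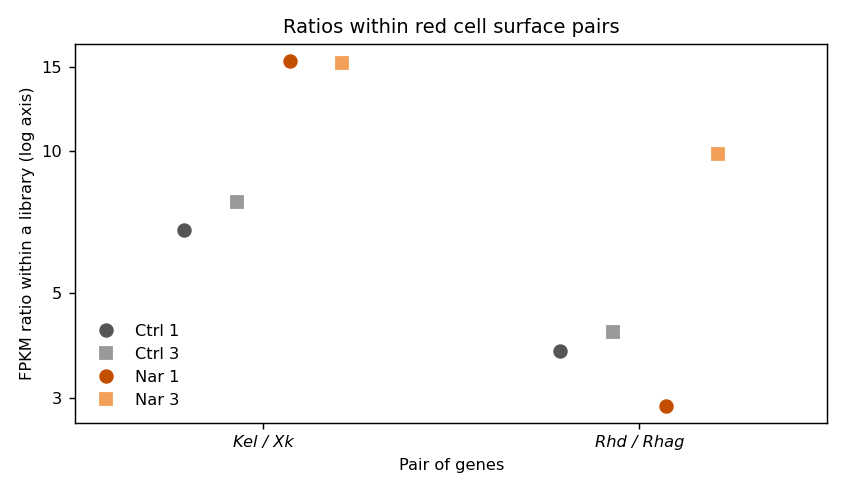
FPKM of a gene divided by that of its partner in the same library, on a log axis, for Kel over Xk and Rhd over Rhag, with controls in grey and Nar in orange. The Nar libraries lie above the controls for Kel over Xk (15.3 and 15.5 against 6.78 and 7.79), and the groups overlap for Rhd over Rhag.

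Aqp1 (NCBI Gene 11826, chr6:55336299-55348555, plus strand) had 9.43 FPKM in Ctrl 1 and 11.2 in Ctrl 3, beside 5.25 in Nar 1 and 4.37 in Nar 3. Its replicates lay close together, and the controls were about as far above the Nar libraries as the typical gene. Controls averaged 10.3 ± 1.22 FPKM (SD, n = 2) and Nar libraries 4.81 ± 0.622 FPKM (SD, n = 2), and the log2 fold change was -1.08 (standard error 0.457, 95% interval -2.12 to -0.05, limma adjusted p = 0.0784). The interval is not adjusted for the number of genes, and with that adjustment Aqp1 did not pass. Aqp1 is also made by the lining of blood vessels, and whether that lining added to its level was not tested. The endothelial genes Cdh5, Tek and Emcn, named after values were seen, were at 0 to 0.03 FPKM in every library. In the order Ctrl 1, Ctrl 3, Nar 1 and Nar 3, Kdr held 0.13, 0.11, 0.08 and 0.03 FPKM. Egfl7 held 0.08, 0.13, 0.06 and 0.07 FPKM in the same order. Kdr and Egfl7 were thus lower in both Nar libraries, as Aqp1 was, and the groups overlapped for the other endothelial markers. Over all 8 endothelial markers the sum was 34.0 to 81.4 FPKM in controls and 23.0 to 42.9 with Nar, nearly all of it from Vwf and Pecam1, which platelets also express. Aqp9, a channel for water and small solutes and the highest of the other aquaporins, had 1.35 FPKM in each control, 1.32 in Nar 1 and 1.27 in Nar 3 (limma adjusted p = 0.890).

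Cd24a (NCBI Gene 12484, chr10:43579169-43584265, plus strand) had 193.4 FPKM in Ctrl 1 and 248.4 in Ctrl 3, beside 284.6 in Nar 1 and 213.5 in Nar 3. The groups overlapped, and controls averaged 220.9 ± 38.9 FPKM (SD, n = 2) and Nar libraries 249.0 ± 50.3 FPKM (SD, n = 2). Its log2 fold change was 0.17 (standard error 0.452, 95% interval -0.85 to 1.19, limma adjusted p = 0.748). The log2 fold change was -0.011 without Ctrl 1 and -0.038 without Nar 1, so that its direction rests on single libraries. Cd24a is also carried by B cells and neutrophils, whose marker sums are given above. The Cd24a transcript shares stretches of up to 258 bases at 90% identity or more with the processed pseudogenes Gm15352 and Gm6212, and how the authors' alignment divided such reads is not known.

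The remaining genes were too low for a test. Ermap, a butyrophilin-like protein that carries the Scianna blood group (NCBI Gene 27028, chr4:119175457-119190013, minus strand), had 0.26 FPKM in Ctrl 1 and 0.34 in Ctrl 3, beside 0.20 in Nar 1 and 0.23 in Nar 3. Its Nar values lay below both controls, with a log2 fold change of -0.34 that turned to 0.51 with median-of-ratios scaling. Icam4, an adhesion molecule that binds integrins (NCBI Gene 78369, chr9:21029432-21030596, plus strand), had 0.15 FPKM in Ctrl 1, was listed at 0 in Ctrl 3, and had 0.05 in Nar 1 and 0.14 in Nar 3. These values overlapped, and the fold change of a gene listed at 0 depends on the pseudocount. An antisense gene, Gm47079, covers 658 bases of an Icam4 exon, and whether counting used the strand is not stated, so reads of the 2 genes cannot be told apart.

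The direction of several genes depended on what the libraries were scaled to. Scaling by the median of ratios moved the typical log2 fold change, the median over tested genes, from -1.07 to -0.0016. On that scale the log2 fold change was 1.98 for Kel, 1.49 for Rhd and 1.34 for Cd24a, with limma adjusted p-values of 0.0642, 0.165 and 0.134. Aqp1 and Gypc reversed to 0.075 and 0.15, with adjusted p-values of 0.987 and 0.967. Of the 5 tested genes 0 were called, against 0.787% of all genes, while 3 had an unadjusted p-value under 0.05, as did 14.9% of all tested genes.

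Scaling to the red cell reference list asked instead how the surface genes stood against other red cell genes, and here 2 of the 5 were called, against 53.7% of all tested genes. Aqp1 was at 13.9 and 9.19 scaled FPKM in controls and at 4.24 and 4.47 with Nar, and it fell by 1.35 on the log2 scale (limma adjusted p = 0.0138). Gypc, at 3.29 and 3.78 in controls against 1.29 and 1.61 with Nar, fell by 1.23 on the log2 scale (limma adjusted p = 0.0331). The median of all tested genes on this scale was -1.32, so both lay near the typical gene. Kel, Rhd and Cd24a had log2 fold changes of 0.58, 0.13 and -0.11 on this scale, with adjusted p-values of 0.237, 0.818 and 0.789.

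The proteins that lie beside this set in the membrane gave no call either. Of 10 membrane partner genes, 0 were called with limma in either direction, adjusted or at an unadjusted p-value under 0.05, against 39.8% and 56.9% of all tested genes, and their median log2 fold change was 0.47. Epb41, the gene of protein 4.1, was the highest, and the controls held 298 and 667 FPKM of it and the Nar libraries 538 and 458. Slc4a1, the gene of band 3, had 40.4 FPKM in Ctrl 1 and 93.2 in Ctrl 3, beside 101.0 in Nar 1 and 61.9 in Nar 3, and the groups overlapped (log2 fold change 0.37, limma adjusted p = 0.588). Mpp1, which encodes p55, had 30.4 and 60.6 FPKM in the controls beside 103.7 and 49.3 with Nar. Cd47, which sits in the Rh complex and marks cells as self, was the exception in direction, with 10.1 and 27.1 FPKM in the controls beside 8.76 and 7.85 with Nar (log2 fold change -0.99, limma adjusted p = 0.167). White blood cells and platelets also carry Cd47. Epb41, Epb42, Ank1, Dmtn and Sptb belong to the red cell reference list as well. With median-of-ratios scaling 9 of the 10 partners had an unadjusted limma p-value under 0.05 and 0 passed after adjustment, against 14.9% and 0.787% of all tested genes.

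Of 24 other protein blood group genes, 14 were tested, 4 were called lower with Nar and 0 higher, no larger a share than the 39.6% of all tested genes called lower, and their median log2 fold change was -0.66. The called genes were Emp3, Cd44, Slc44a2 and Cr1l, with log2 fold changes of -1.68, -1.67, -1.49 and -1.22 and limma adjusted p-values of 0.0213, 0.030, 0.0304 and 0.0434. Emp3 carries the MAM antigen, Cd44 is the hyaluronan receptor, Slc44a2 is a choline transporter-like protein and Cr1l is a complement regulator. White blood cells express at least Emp3, Cd44 and Slc44a2 as well, and none of the 4 is taken here as particular to red cells. The 4 calls were lost when any library was left out, where 0 to 259 of all 5339 genes were called, and after median-of-ratios scaling, where 42 were. With the replicate number as a block 1 of the 14 was called. Bsg, which carries the Ok antigen, had 26.9 and 73.7 FPKM in the controls beside 45.2 and 44.2 with Nar. Cd151 of the Raph group and Cd59a, a complement inhibitor, had log2 fold changes of -1.12 and -1.63 that did not pass (limma adjusted p = 0.144 and 0.0696). Prnp, the prion protein gene, lay higher in both Nar libraries, at 8.91 and 12.04 FPKM against 7.31 and 7.33, and did not pass (limma adjusted p = 0.369).

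**Figure D5:**
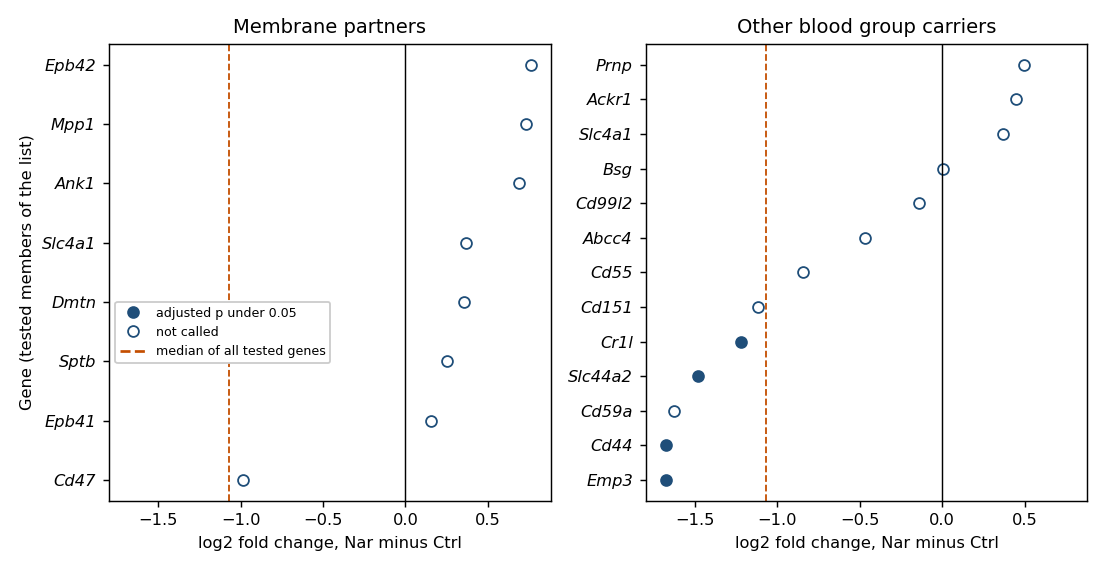
Log2 fold change, Nar minus control, of tested membrane partner genes on the left and of tested blood group carriers on the right, as far as they are reported here, with filled circles at a limma adjusted p under 0.05 and the median of all tested genes as a dashed line. Slc4a1 is in both panels. No partner is filled, and the 4 filled carriers lie left of the dashed line.

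Carbohydrate blood groups are built by enzymes and not carried by a protein of their own. Of 8 such enzyme genes, 6 had values and 1 was tested. Gcnt2, which makes the branched I antigen, had 4.55 FPKM in Ctrl 1 and 3.99 in Ctrl 3, beside 0.78 in Nar 1 and 0.76 in Nar 3, and it fell by 2.33 on the log2 scale (standard error 0.362, limma adjusted p = 0.00553). Without Ctrl 1, without Ctrl 3 or without the filter on low levels, limma called 0 genes in all (2682, 2133 and 4978 at an unadjusted p-value under 0.05), Gcnt2 included. The other enzymes with values had levels of at most 0.15 FPKM. Among 26 relatives of the surface genes, such as the kidney Rh glycoproteins and other aquaporins, 19 had values and 3 were tested, Aqp9, Icam1 and Icam2, with 0 called with limma and 1, Icam1, at an unadjusted p-value under 0.05, against 39.8% and 56.9% of all tested genes.

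Of the nearest genes with values on either side of each surface gene, 4 were expressed enough for the test and 1 was called, near the 39.8% of all tested genes. Cybb, the phagocyte oxidase gene 122007 bases after Xk, had 9.27 and 5.24 FPKM in the controls beside 2.19 and 1.19 with Nar, and it fell by 2.04 on the log2 scale (limma adjusted p = 0.0201). Tmem50a, 1677 bases after Rhd, had 14.8 and 20.7 FPKM in the controls beside 10.2 and 7.49 with Nar (log2 fold change -0.99, limma adjusted p = 0.119). Svbp, 5297 bases after Ermap, had a log2 fold change of -0.46 (limma adjusted p = 0.315). Icam1, which ends 618 bases before Icam4, had 0.97 and 0.75 FPKM in the controls beside 0.37 and 0.40 with Nar (limma adjusted p = 0.0644).

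The control libraries differed from each other for several of the surface genes. Ctrl 3 exceeded Ctrl 1 by 2.49-fold for Rhd, 2.27-fold for Rhag, 2.15-fold for Kel, 2.05-fold for Gypc and 1.87-fold for Xk, and by 1.31-fold, 1.28-fold and 1.18-fold for Ermap, Cd24a and Aqp1. Icam4 went the other way, with 0.15 FPKM in Ctrl 1 and a listed 0 in Ctrl 3. The median of this ratio was 1.83 over the red cell reference list, 2.65 over the platelet markers and 1.10 over all tested genes. Averaged over the 5 tested surface genes, each centred on its own mean, the log2 level was -0.32 in Ctrl 1 and 0.46 in Ctrl 3, beside -0.04 in Nar 1 and -0.09 in Nar 3. The genes outside the lists with the nearest profile by Euclidean distance over the 4 libraries were Atp6v0d1, Rnf14, Map2k2, Rnpc3 and Napa, at distances of 0.0861 to 0.16 against a median of 1.20 for all tested genes. They were picked as the nearest, so lying below that median was fixed in advance. The averaged profile joins genes that differ in direction, such as Kel (log2 fold change 0.84) and Aqp1 (-1.08).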

How the data were processed

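Blood mRNA was purified with oligo(dT) beads and sequenced as 4 libraries, 2 per group. The deposited file gives the level of each gene in FPKM, as computed by the authors, to 2 decimals. The submitters' processing notes name TopHat2, Cufflinks and GRCm38, while the paper's methods name bowtie-2 and, for differential expression, DEGseq with thresholds of 2-fold and a q-value of 0.001. Sequencing depth is unknown from these values, and counting intervals are left out. Blank genes (5313 of 23136 listed) were left out, and 0 columns were left unmapped.

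Values were tested as log2(FPKM + 0.1) with limma 3.58.1 (trend) in R 4.3.3, since DEGseq needs reads. The surface genes and all gene lists were chosen with earlier results of these data known. Named genes were the surface genes, the highest and the most changed called genes of each list, chromosomal neighbours and nearest profiles. The neighbours, the ratios, the similarity search, the motifs, and Prnp, Cr1l, Slc44a2, Cd44, Cdh5, Tek and Emcn by name, were added after values were seen. Alternatives were other pseudocounts, filters, scalings and call thresholds, limma without trend, a replicate block and each library left out. Positions and promoters are RefSeq GRCm38.p6, overlaps and transcripts GENCODE (same build). Plots used matplotlib 3.10.9. Some genes of the lists are counted but not reported by name here.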

Additional observations from a re-analysis of the deposited data

How the results depend on the processing

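Surface genes were called only with scaling to the red cell reference list and with the crossed replicate block, each time 2 of 5, both lower. The crossed block was added after seeing the data. Of all tested genes, 53.7% and 60.6% were called with these settings. Several other alternatives called few or 0 of all genes, so that 0 calls among 5 says nothing of stability there. The deviations of same-numbered libraries had a correlation of -0.153, and the shared numbers come only from the labels. With the replicate block 1815 genes (34.0%) and 1 of 14 other carriers (lower) were called. With the crossed block 3233 genes (60.6%) were called, with 7 of 14 carriers (6 lower, 1 higher) and 1 of 10 membrane partners (higher).

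All calls numbered 2123 with the design used. They were 0 without the filter (4978 at an unadjusted p-value under 0.05), 117 at a mean of at least 5 FPKM, 256 after removal of haemoglobin, 42 under median-of-ratios scaling and 0 at the study's thresholds (3036 at an unadjusted p-value under 0.05). Carrier calls, 4 lower with the design used, were 0 without the filter, 1 at 5 FPKM, 1 after removal of haemoglobin (higher, with every lower call lost), 0 under median-of-ratios scaling, 7 lower with red cell reference scaling and 0 at the study's thresholds. Partner calls, 0 with the design used, were 1 higher with haemoglobin removed and 1 lower with red cell reference scaling. Leaving out each library gave 0 to 259 calls, 0 carriers, 0 partners and 0 surface genes, and 0 calls without either control (2682 without Ctrl 1 and 2133 without Ctrl 3 at an unadjusted p-value under 0.05).

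The median of all 9 genes reversed to 0.53 after removal of haemoglobin and 0.72 under median-of-ratios scaling, and ran from -0.48 to 0.18 with a library left out. The median of the 5 tested genes moved to 0.73 and 1.34 under the same scalings, reversed to -0.11 with red cell reference scaling, and ran from -0.24 to 0.35. Of the genes too low to test, Rhag, Xk and Ermap turned above 0 under both of the first scalings. Gypc (0.15) and Aqp1 (0.075) reversed with median-of-ratios scaling, Cd24a (-0.11) with red cell reference scaling and, at -0.011 and -0.038, without Ctrl 1 and Nar 1, and Rhd, at -0.24 and -0.02, without Ctrl 1 and Nar 3. With each library left out, Cd24a ran from -0.038 to 0.377 and Rhd from -0.24 to 0.997. The cause of these changes was not tested.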
